A study of Mus musculus with 6 samples.

Results

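The genes described here are the 10 that encode BiP (Hspa5), GRP94 (Hsp90b1) and the co-chaperones and regulators that work with them in the endoplasmic reticulum (ER), namely Hyou1, Dnajb9, Dnajb11, Dnajc3, Sdf2l1, Creld2, Manf and Sil1. They were chosen by symbol from the 49584 gene identifiers of a count table of mouse spermatocytes, through GENCODE vM21, and all 10 had enough counts to be tested among 13474 genes. In Srp68 SKO cells 7 of the 10 were lower than in wild type (WT) cells, Hsp90b1 was higher, and Hyou1 and Manf did not pass the test, where 14.4% of all tested genes were lower and 14.1% higher. Hspa5, the most abundant of them in WT cells, stood at 36.8% of its WT level, while Hsp90b1 stood at 1.80 times its WT level.

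BiP is the Hsp70 of the ER lumen: it binds hydrophobic stretches of nascent proteins as they leave the translocon, and its cycle of ATP hydrolysis and nucleotide release is driven by J-domain proteins and by nucleotide exchange factors. GRP94 is the Hsp90 of the same compartment and acts later, on a narrower set of clients. When unfolded proteins accumulate in the ER, the transcription factors ATF6 and XBP1 raise the genes of this group together through promoter elements of the ER stress response, and Hspa5 is the classical readout of that unfolded protein response. SRP68 belongs to the signal recognition particle (SRP), which escorts ribosomes that are making secretory and membrane proteins to the ER, so that the clients of these chaperones enter through the step in which it acts.

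The libraries were made by Smart-seq2, which copies polyadenylated RNA to full-length cDNA and amplifies it by PCR, from leptotene and zygotene spermatocytes isolated by fluorescence-activated sorting from the testes of mice at postnatal day 12. The groups are 3 libraries labelled Srp68 SKO, a knockout of Srp68, and 3 labelled wild type. None of the sources used here gives how the gene was removed, in which cells, the strain, or whether each library came from its own animal, so the p-values reflect spread among these libraries, which may be technical. The SKO libraries held 11853738 to 12728853 counts and the WT libraries 14254224 to 15381473. Srp68 was at 12.1, 6.52 and 6.93 CPM (counts scaled to a common library size) in the SKO libraries, against 21.7, 29.3 and 22.6 CPM in the WT libraries, so every SKO library was below every WT library (log2 fold change −1.52, SE 0.28; edgeR adjusted p = 0.00107). Markers listed for leptotene and zygotene cells, among them Sycp1, Sycp3, Dmc1 and Hormad1, summed to 25210 to 33230 CPM in SKO and 14710 to 18260 CPM in WT libraries, so the labelled cells were present in both groups. Of these 10 markers 7 were higher in SKO cells and 1, Spo11, was lower (log2 fold change −0.36; edgeR adjusted p = 0.0189). The largest change was that of Stra8, at 486 CPM in SKO and 99.9 CPM in WT cells (2.28; 2.66e-07). Rec8 was at only 1.78 CPM in SKO and 2.46 CPM in WT cells on average. Of the exon length of Sycp3, 52.2% is shared with Chpt1 on the opposite strand or its own, which the counts cannot separate. The part of these marker differences in the values below was not tested.

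The ER stress response element (ERSE) is the promoter sequence through which NF-Y and ATF6 are known to act on Hspa5 and related genes; its part in the values below was not tested. RefSeq promoter windows on GRCm38.p6, from 250 bases before to 50 bases after the start site, were at hand for 7 of the 10 genes. The letters CCAAT, then any 9 bases, then CCACG were searched on both strands, and stood in 39 of 32544 such windows (0.12%) and in those of 4 of the 7 genes. The Hsp90b1 window held that element at 2 places, with only exact matches counted in any window. The element ERSE-II (ATTGG, any base, CCACG) stood in 12 windows (0.0369%), with Dnajb11 among them. Neither was found in the windows of Dnajb9 and Sdf2l1, although all 7 held a CCAAT box, as did 37.4% of all windows; every ERSE contains one. The XBP1 element TGACGTGG (0.682% of windows) and the ATF4 element core TGATGNAA (3.91%) were in none of the 7. The stretches below, chosen because they hold an ERSE, or an ERSE-II in Dnajb11, and come from the higher Hsp90b1 as well as from 4 lower genes, read 5′ to 3′ on the gene's strand, with the element in capitals; where it lies on the other strand it reads CGTGG, 9 bases, ATTGG.
Hspa5 (chr2:34772005-34772063, plus strand, element from −65): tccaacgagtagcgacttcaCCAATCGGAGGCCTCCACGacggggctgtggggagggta
Hsp90b1 (chr10:86705513-86705676, minus strand, elements from −212 and −107): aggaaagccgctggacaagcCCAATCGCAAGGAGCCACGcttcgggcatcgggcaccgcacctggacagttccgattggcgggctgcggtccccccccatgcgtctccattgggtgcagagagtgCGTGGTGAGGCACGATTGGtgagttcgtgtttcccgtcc
Dnajc3 (chr14:118937807-118937865, plus strand, element from −105): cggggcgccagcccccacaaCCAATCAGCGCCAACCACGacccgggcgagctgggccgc
Creld2 (chr15:88819500-88819558, plus strand, element from −126): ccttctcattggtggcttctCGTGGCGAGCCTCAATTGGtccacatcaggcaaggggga
Dnajb11 (chr16:22857832-22857882, plus strand, ERSE-II from 7 bases after the start site): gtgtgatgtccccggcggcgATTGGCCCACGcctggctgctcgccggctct
A match describes these letters only and says nothing of whether a factor bound there in these cells.

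Hspa5 fell in SKO cells. Its transcripts (ENSMUSG00000026864; GRCm38 chr2:34771970-34777547, plus strand) were at 646, 699.8 and 678 CPM in the SKO libraries, against 2001, 1774 and 1729 CPM in the WT libraries. The groups did not overlap, and the lowest WT library was above 2 times the highest SKO library. The means were 675 ± 26.9 CPM in SKO and 1835 ± 146 CPM in WT cells (SD, n = 3 each), a log2 fold change of −1.44 (SE 0.09) with an adjusted p of 4.49e-07 in edgeR, whose 95% interval places the SKO level at 32.0% to 42.2% of the WT level. Of the 13474 tested genes, 6.14% had a lower log2 fold change than Hspa5. Its transcript has no copy of at least 90% identity over 200 bases among annotated transcripts and shares no exon with a neighbour. In bulk libraries such as these, less of the RNA per cell and fewer of the cells that hold it cannot be told apart.

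Hsp90b1 rose in the same cells. It lies on the minus strand (ENSMUSG00000020048; GRCm38 chr10:86690209-86705509) and was at 785, 826 and 869 CPM in the SKO libraries, against 452, 391 and 535 CPM in the WT libraries. All SKO libraries were above all WT libraries, with means of 827 ± 42.0 CPM in SKO and 459 ± 72.1 CPM in WT cells (SD, n = 3 each). The log2 fold change was 0.85 (SE 0.11; edgeR adjusted p = 9.78e-05), and its 95% interval runs from 1.52-fold to 2.13-fold. A share of 15.7% of its exon length is covered by other genes, among them the opposite-strand pseudogene 1810014B01Rik. That gene had 145 to 204 counts in SKO and 152 to 211 counts in WT libraries, while Hsp90b1 had 8879 to 9538 counts in SKO and 6753 to 8166 in WT libraries.

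**Figure D1:**
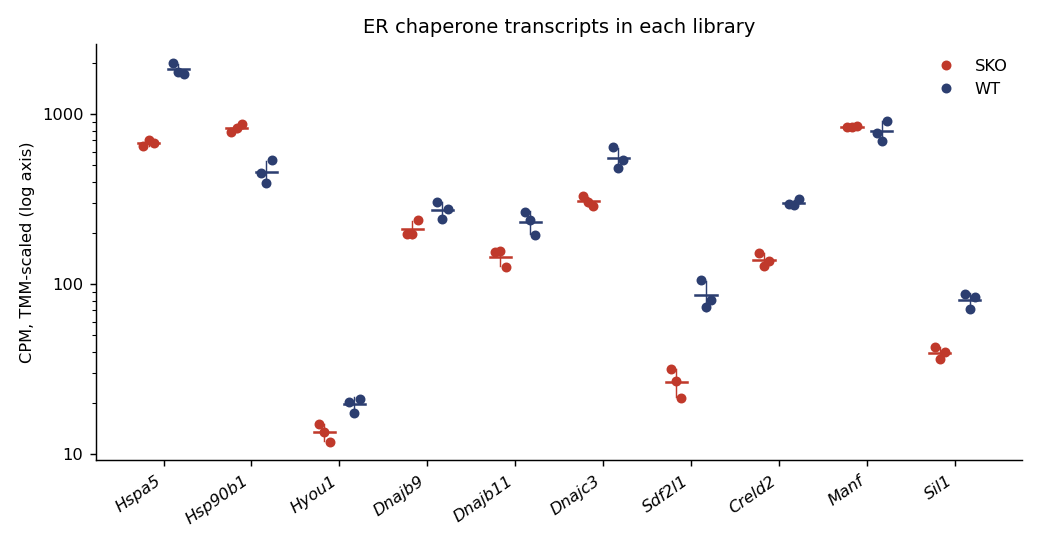
CPM of each gene (log axis) in the 3 SKO libraries (left of each pair) and the 3 WT libraries (right); points are libraries, horizontal lines means and vertical lines SD. Hspa5 lies at 646 to 699.8 CPM in SKO and 1729 to 2001 CPM in WT libraries, Hsp90b1 is the gene with all SKO points above all WT points, and Manf is the gene whose groups overlap.

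Of the 10 genes, 8 passed an adjusted p of 0.05 in either direction, as did 28.5% of all tested genes. The median log2 fold change was −0.76 over the 10 genes and −0.03 over all tested genes. In 9 of the 10 the SKO and WT libraries did not overlap, where 43.8% of all tested genes had such a separation. The 10 genes were named with earlier results of these libraries known, so these counts describe them and are no independent evidence of a direction.

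The 3 J-domain proteins among the 10 genes, which bring clients to BiP and start its ATP hydrolysis, were all lower, by unequal amounts. J-domain genes outside the 10 did not share this direction. Sec63 was higher (log2 fold change 0.88; edgeR adjusted p = 0.000312). Dnajc1 (0.48), Dnajc25 (0.33), Dnajc10 (0.15) and Dnajc16 (−0.74) did not pass. Dnajc3 (ERdj6, also known as p58IPK; chr14:118937976-118981697, plus strand) was at 328, 303 and 289.8 CPM in SKO libraries, against 639.6, 482 and 537 CPM in WT libraries. Its groups did not overlap, with means of 307 ± 19.6 CPM in SKO and 553 ± 79.9 CPM in WT cells (SD, n = 3 each; log2 fold change −0.85, SE 0.11; edgeR adjusted p = 1e-04). Dnajb11 (ERdj3, a soluble partner that binds unfolded clients itself; chr16:22857845-22879634, plus strand) was at 153, 156 and 125 CPM in SKO libraries, against 265, 239.6 and 194 CPM in WT libraries. Its highest SKO library was below its lowest WT library. It fell by 0.68 on the log2 scale (SE 0.13; edgeR adjusted p = 0.00169), and by 0.41 (0.0177) after removal of the trend of each library with transcript GC content and length. Dnajb9 (ERdj4, which in mouse cells restrains the sensor IRE1 by bringing BiP to it; chr12:44205559-44210326, minus strand) was at 197, 196 and 239 CPM in SKO libraries, against 303, 242 and 278 CPM in WT libraries. Its highest SKO library was only just below its lowest WT library, and it had the smallest called change of the 10 genes (log2 fold change −0.38, SE 0.12; edgeR adjusted p = 0.0277). Dnajb9 lost that call without SKO replicate 1 (log2 fold change −0.34; edgeR adjusted p = 0.0788), SKO replicate 2 (−0.34; 0.125), WT replicate 1 (−0.30; 0.123) or WT replicate 3 (−0.37; 0.0575). It stood at −0.64 with library totals in place of TMM scaling and at −0.60 with the GC and length trend removed, with its call held in both. A processed pseudogene copy of Dnajb9, Gm6568, had 0 to 2 counts in SKO and 0 to 13 counts in WT libraries.

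Of the nucleotide exchange factors, which release ADP from BiP so that it lets go of its client, Sil1 fell and Hyou1 did not pass. Sil1 (ENSMUSG00000024357; chr18:35266396-35499780, minus strand) was at 42.5, 36.2 and 39.9 CPM in SKO libraries, against 87.3, 71.4 and 83.6 CPM in WT libraries. The 2 groups were separate, with means of 39.6 ± 3.19 CPM in SKO and 80.8 ± 8.33 CPM in WT cells (SD, n = 3 each) and a log2 fold change of −1.03 (SE 0.15; edgeR adjusted p = 0.000151). With the GC and length trend removed the change of Sil1 was −0.56 (edgeR adjusted p = 0.0142), the furthest that this setting moved a called gene of the group. Hyou1 (GRP170, a large Hsp70-related protein that also holds unfolded chains; chr9:44379490-44392369, plus strand) had few reads in both genotypes. It was at 15.1, 13.5 and 11.8 CPM in SKO libraries, against 20.3, 17.5 and 21.2 CPM in WT libraries. Although every SKO library was below every WT library, its log2 fold change of −0.54 (SE 0.23) had an edgeR adjusted p of 0.0905, and the 95% interval places the SKO level at 48.9% to 96.2% of WT. With library totals it passed (−0.80; 0.0195), and with the trend removed it stood at −0.24 (0.499).

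The remaining genes encode smaller ER proteins that rise with BiP in the unfolded protein response. Sdf2l1, whose product forms a complex with ERdj3, had the steepest decrease of the 10 genes. It lies at chr16:17130138-17132383 (minus strand) and was at 31.5, 27.0 and 21.4 CPM in SKO libraries, against 106, 73.0 and 80.9 CPM in WT libraries. That is 26.6 ± 5.09 CPM in SKO and 86.6 ± 17.2 CPM in WT cells (SD, n = 3 each), with a log2 fold change of −1.70 (SE 0.19; edgeR adjusted p = 2.18e-05). Creld2, an ER protein with EGF-like domains (chr15:88819646-88826683, plus strand), also fell. It was at 153, 128 and 136 CPM in SKO libraries, against 296, 292 and 316 CPM in WT libraries. Its WT libraries lay close together and far above the SKO libraries, with means of 139 ± 12.7 CPM in SKO and 301 ± 12.8 CPM in WT cells (SD, n = 3 each; log2 fold change −1.12, SE 0.11; edgeR adjusted p = 8.33e-06). Manf, a secreted protein that also binds BiP and inhibits its nucleotide exchange (chr9:106838312-106891979, minus strand), did not pass the test. It was at 839, 839.8 and 853 CPM in SKO libraries, against 776, 697 and 914 CPM in WT libraries. In CPM the SKO values thus lay inside the WT range. Its log2 fold change of 0.09 (SE 0.10; edgeR adjusted p = 0.594) has a 95% interval of 90.8% to 124% of the WT level. Its sign turned with library totals (−0.17) and without WT replicate 2, where it was next to 0. Of its exon length, 9.25% overlaps other genes, among them Dcaf1 on the opposite strand. Dcaf1 had 580 to 802 counts in SKO and 668 to 784 counts in WT libraries. Manf had 8862 to 10200 counts in SKO and 12031 to 13963 in WT libraries.

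**Figure D2:**
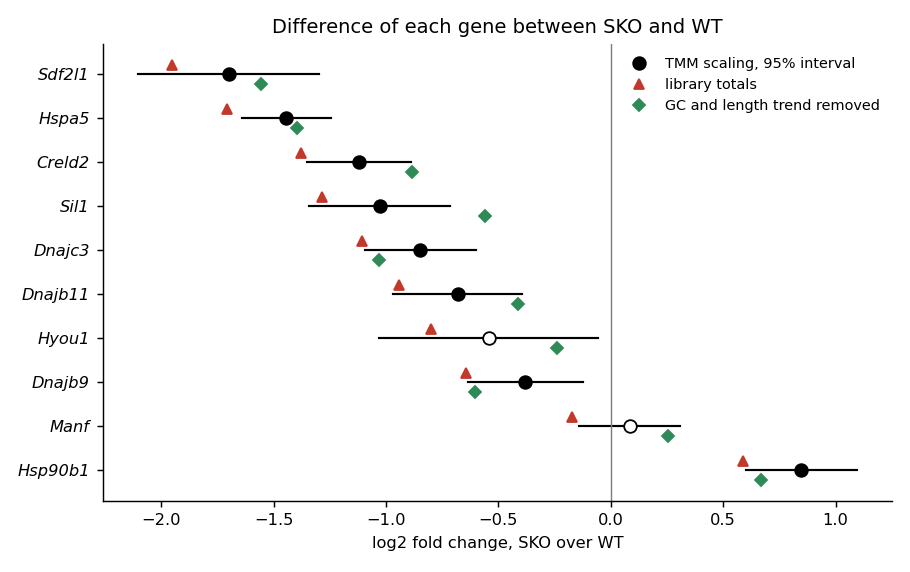
Log2 fold change (SKO over WT) of each gene with its 95% interval under TMM scaling (circles, filled where the adjusted p is under 0.05), with library totals (triangles) and with the GC and length trend removed (diamonds). Hspa5 lies at −1.44, −1.71 and −1.40 under these 3 settings and Hsp90b1 at 0.85, 0.59 and 0.67, while Manf is on both sides of 0.

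The scaling between libraries set the zero point of these values. When libraries were scaled by their totals alone, the median of all tested genes moved to −0.29, and increases made up 24.2% of calls in place of 49.5%. Of the 10 genes, 8 were then lower and 1 higher. Of the 13474 tested genes, 3168 were lower and 1010 higher in that setting, against 1937 and 1901 with TMM. Hsp90b1 stayed higher with library totals (0.59; edgeR adjusted p = 0.000536), and Hspa5 relative to the median of all genes was at −1.42 with library totals and −1.41 with TMM.

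Levels were compared between genes per length, as TPM, the counts per annotated exon length scaled to the same sum in each library. This length joins the exons of all annotated isoforms, so a gene with a long rare isoform has too low a value. TPM are scaled differently from CPM, without TMM factors and after division by length. In TPM the Hspa5 level in SKO cells was 28.8% of WT, where TMM-scaled counts gave 36.8%. Hsp90b1 was at 141.1% of WT in TPM, where TMM-scaled counts gave 180%. Manf, whose groups overlapped in CPM, was at 506, 474 and 463 TPM in SKO libraries. Its WT libraries were at 561, 525 and 647 TPM, so its groups did not overlap in TPM. In SKO cells the order was Manf (481 TPM), Hsp90b1 (411), Hspa5 (320.1), Creld2 (204), Dnajb9 (166), Dnajc3 (120.3), Dnajb11 (90.3), Sdf2l1 (48.6), Sil1 (23.2) and Hyou1 (3.76). In WT cells it was Hspa5 (1113 TPM), Manf (578), Creld2 (566), Hsp90b1 (291), Dnajb9 (276), Dnajc3 (275), Sdf2l1 (200.3), Dnajb11 (185), Sil1 (60.2) and Hyou1 (6.96). Hspa5 thus headed the WT order by 1.93 times, and ranked the 142nd of all listed genes there, but came behind Manf and Hsp90b1 and ranked the 545th in SKO cells. Neighbours in the SKO order had ranges that did not overlap between libraries, whereas in WT cells Manf overlapped Creld2, Hsp90b1 overlapped Dnajb9, Dnajb9 overlapped Dnajc3, and Sdf2l1 overlapped Dnajb11.

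**Figure D3:**
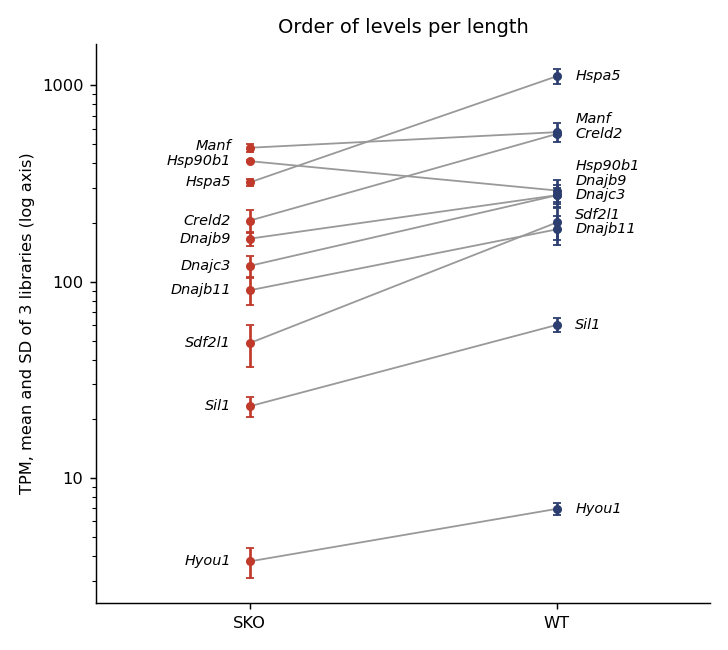
Mean TPM (log axis) of each gene in SKO (left) and WT (right) libraries, with SD bars over 3 libraries and lines that join the same gene. Hspa5 is below Manf and Hsp90b1 in SKO at 320.1 TPM and first in WT at 1113 TPM, while the Hsp90b1 line is the only one that is higher on the SKO side.

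Ratios within a library do not depend on the scaling between libraries. For each Hspa5 transcript there were 1.27, 1.24 and 1.34 Hsp90b1 transcripts in the SKO libraries, against 0.237, 0.231 and 0.325 in the WT libraries. GRP94 transcripts thus outnumbered those of BiP in every SKO library and in no WT library. The mean ratios were 1.29 ± 0.0541 in SKO and 0.264 ± 0.0523 in WT cells (SD, n = 3 each), 4.87 times higher in SKO, with a two-sided exact permutation p of 0.1, the smallest that 3 libraries against 3 allow. The ratio to Hspa5 was also higher in all SKO than in all WT libraries for 6 of the other 8 genes. Only 6.14% of the 13474 tested genes had a lower log2 fold change than Hspa5, so most genes rose relative to it. The share of all genes with such a separation of ratios was not counted, so the 6 genes show nothing particular to this group. For every 100 Hspa5 transcripts there were 150.3 of Manf in SKO and 52.4 in WT cells, and 1.17 of Hyou1 in SKO and 0.629 in WT cells. Among the J-domain genes of this group there were 51.9 of Dnajb9 in SKO and 24.8 in WT cells. Dnajb11 stood at 28.1 in SKO and 16.5 in WT cells, and Dnajc3 at 37.5 in SKO and 24.7 in WT cells. The levels of these J-domain genes were themselves lower in SKO cells, but with smaller fitted changes than that of Hspa5. Sil1 stood at 7.24 in SKO and 5.42 in WT cells. Creld2 (63.9 in SKO, 51.1 in WT) and Sdf2l1 (15.1 in SKO, 17.9 in WT) overlapped between the groups, so no separation of their ratios was seen.

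**Figure D4:**
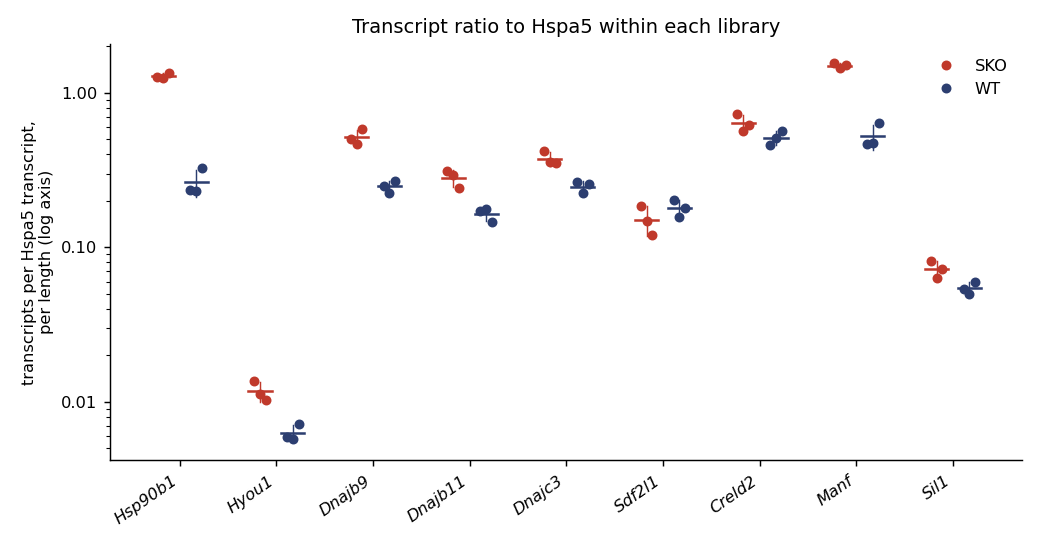
Transcripts of each gene per Hspa5 transcript within a library, per length (log axis), in SKO (left of each pair) and WT (right) libraries, with means and SD. The Hsp90b1 ratio is 1.24 to 1.34 in SKO and 0.231 to 0.325 in WT libraries, and only Sdf2l1 and Creld2 overlap between the groups.

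Summed over the 10 genes, the level was 1868 ± 93.1 TPM in SKO and 3551 ± 181 TPM in WT cells (SD, n = 3 each), or 52.6% of WT. Hspa5 made up 17.15 ± 0.741% of that sum in SKO and 31.3 ± 1.99% in WT cells, and Hsp90b1 made up 22.04 ± 1.01% in SKO and 8.21 ± 1.06% in WT cells. In CPM, which are TMM-scaled and not divided by length, the sums were 3191 to 3262 in SKO and 4280 to 4945 in WT libraries.

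The genes with the profile nearest to Hspa5 were searched among 8072 protein-coding genes with a mean of at least 5 CPM, by the root mean square difference of log2 values, taken relative to each gene's WT mean, over the 6 libraries (0.5 CPM added before the logarithm). They were Tmem248, Morn4, 9530068E07Rik, BC004004 and Hgsnat, at distances of 0.113 to 0.125. For Hsp90b1 they were Thoc2, Pigf, Sec62, Ndufs4 and Cox5b, at 0.042 to 0.0601. None of the other 9 chaperone genes was among the 5 nearest to either, and with 6 libraries in 2 groups such a distance is set largely by the size of the difference between SKO and WT cells.

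Of 15 other partners of these chaperones that were tested, 2 were higher, 4 lower and 9 did not pass, with a median log2 fold change of −0.01; of all tested genes, 14.1% were higher and 14.4% lower. Sec63, the J-domain protein that recruits BiP to the translocon, rose to 110 ± 12.0 CPM in SKO cells, against 59.9 ± 6.46 CPM in WT cells (edgeR adjusted p = 0.000312). Mesd, a chaperone of LDL-receptor family proteins, fell to 24.6 ± 2.10 CPM in SKO cells, against 63.4 ± 11.1 CPM in WT cells (6.96e-05), with 23.8% of its exon length shared with another gene. Cnpy2, a saposin-like ER protein, rose to 58.2 ± 4.17 CPM in SKO cells, against 35.8 ± 1.79 CPM in WT cells (0.00291).

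Disulfide isomerases and oxidases form and reshuffle disulfide bonds in ER clients. Of 21 tested, 10 were lower, 1 was higher and 10 did not pass, where 14.4% of all tested genes were lower and 14.1% higher. The median log2 fold change was −0.72, against −0.03 over all tested genes. Erp44, which retains oxidases in the early secretory pathway, was at 102 ± 10.6 CPM in SKO and 301 ± 36.1 CPM in WT cells (edgeR adjusted p = 2.01e-06). Pdia6, a BiP-associated isomerase, was at 310.3 ± 35.6 CPM in SKO and 598 ± 35.6 CPM in WT cells (2.59e-05), and the oxidase Ero1l at 63.5 ± 8.65 CPM in SKO and 137 ± 11.6 CPM in WT cells (5.05e-05). Pdia4, another classical target of the unfolded protein response, was at 52.9 ± 7.22 CPM in SKO and 56.8 ± 11.6 CPM in WT cells (log2 fold change −0.10; edgeR adjusted p = 0.713).

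Of 14 tested lectin chaperone and prolyl isomerase genes, 3 were higher and 4 lower (median 0.04), and of 23 degradation genes 5 were higher and 4 lower (median −0.20). The shares over all tested genes were 14.1% higher and 14.4% lower. Calr fell with a log2 fold change of −1.98 (edgeR adjusted p = 2.66e-07) and Clgn, a male germ cell relative of calnexin that is also among the pachytene markers, with −1.68 (5.89e-05), while Canx rose with 1.04 (0.000805) and the isomerase gene Fkbp2 with 0.96 (5.08e-05). Herpud1, a membrane component of the degradation complex that is also a target of ATF6 and ATF4, was at 94.6 ± 19.7 CPM in SKO and 28.4 ± 2.31 CPM in WT cells (8.36e-06). Edem2, which trims mannose from misfolded glycoproteins, was at 12.6 ± 6.32 CPM in SKO and 60.0 ± 7.74 CPM in WT cells (5.29e-05), and Derl2, a channel-like degradation factor, at 138 ± 11.9 CPM in SKO and 97.9 ± 7.83 CPM in WT cells (0.00735).

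**Figure D5:**
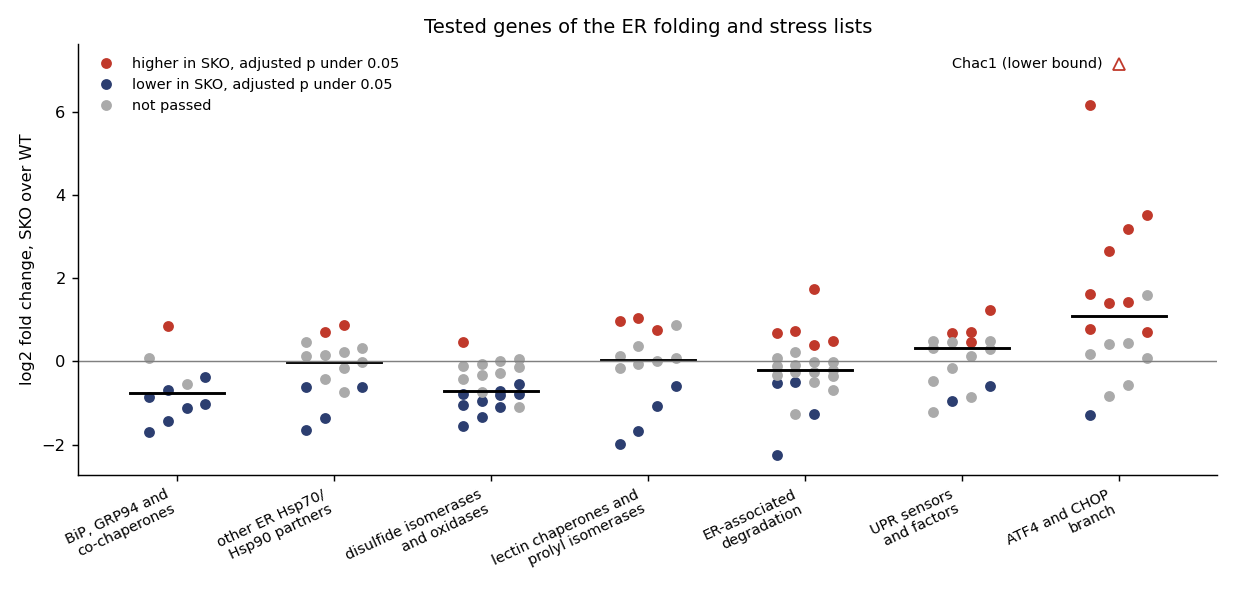
Log2 fold change (SKO over WT) of each tested gene in 7 lists of ER folding and stress genes; red and blue points are called higher and lower, grey points did not pass, and black bars are medians. The medians run from −0.76 for BiP, GRP94 and their co-chaperones to 1.09 for the ATF4 and CHOP branch, where the open triangle marks the lower bound of Chac1.

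Of 16 tested sensors and transcription factors of the unfolded protein response, 4 were higher, 2 lower and 10 did not pass (median 0.32), where 28.5% of all tested genes were called in either direction. Xbp1 was at 41.6 ± 3.52 CPM in SKO and 29.7 ± 7.04 CPM in WT cells (log2 fold change 0.49; edgeR adjusted p = 0.0788), and Atf6 at 31.3 ± 2.55 CPM in SKO and 28.5 ± 7.54 CPM in WT cells (0.14; 0.678). Counts per gene do not separate spliced from unspliced Xbp1, nor cleaved from full-length ATF6. The called genes with the smallest p were Nfyc, a subunit of NF-Y, with −0.59 (edgeR adjusted p = 0.0065), Crebzf with 0.69 (0.0154) and Yy1 with 0.47 (0.017). In the ATF4 and CHOP branch, which answers to the kinase PERK and its relatives, 10 of 18 tested genes were higher, 1 was lower and 7 did not pass. Of all tested genes, 14.1% were higher and 14.4% lower. The median of this branch was 1.09, and it was the same with Chac1 at its bound. Asns was at 158 ± 24.8 CPM in SKO and 17.4 ± 5.78 CPM in WT cells (9.09e-07), Slc3a2 at 291 ± 20.4 CPM in SKO and 109 ± 18.5 CPM in WT cells (5.32e-06), and Chac1 had 299 counts in the SKO libraries and 0 in the WT libraries, at least 143-fold higher against a floor of 3 counts over the WT group, which covers counting error only. Ddit3, the gene for CHOP, rose with a log2 fold change of 1.62 (1.5e-05), and Atf4 itself was at 0.42 (0.0703).

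Markers of other cells were examined in the same fit, in which 14.1% of all tested genes were higher and 14.4% lower. Of 8 pachytene markers, 6 were tested and 5 of these were lower, with log2 fold changes from −2.74 (Adam2) to −1.45 (Ybx2). Ldhc, the lactate dehydrogenase of male germ cells, was at 12.7 CPM in SKO and 55.7 CPM in WT cells. The sum of the 8 was 264 to 323 CPM in SKO and 362 to 467 CPM in WT libraries, most of it Hspa2, which did not pass, at 257 ± 32.0 CPM in SKO and 244 ± 39.8 CPM in WT cells. Spermatogonial markers summed to 219 to 290.3 CPM in SKO and 331 to 387 CPM in WT libraries, with 1 of 6 tested called lower. That gene, Uchl1, was at 118 ± 26.7 CPM in SKO and 215 ± 8.79 CPM in WT cells, with 18.1% of its exon length shared with another gene. The others did not pass, among them Kit (35.3 CPM in SKO, 29.95 in WT), Dmrt1 (65.3 in SKO, 69.1 in WT) and Sohlh1 (21.6 in SKO, 34.7 in WT). Sertoli markers summed to 542 to 723 CPM in SKO and 360 to 433 CPM in WT libraries, nearly all of it Ctsl, at 618 ± 82.4 CPM in SKO and 381 ± 33.3 CPM in WT cells. The defining Sertoli genes were low in both, with Sox9 at 6.50 CPM in SKO and 2.77 CPM in WT cells and Wt1 at 2.79 CPM in SKO and 1.10 CPM in WT cells. The Leydig genes Cyp17a1 and Cyp11a1 had 0 counts throughout, and Leydig markers summed to 4.94 to 9.87 CPM in SKO and 0.58 to 6.60 CPM in WT libraries. The 4 endothelial markers together stayed at 0.77 to 1.49 CPM in SKO and 0.387 to 0.985 CPM in WT libraries. Myoid markers were at 4.44 to 13.3 CPM in SKO and 1.04 to 2.36 CPM in WT libraries, with Acta2 called higher and Des at 0, and macrophage markers at 1.86 to 29.9 CPM in SKO and 1.80 to 2.25 CPM in WT libraries, with Lyz2 called higher. The Lyz2 value was carried by SKO replicate 3, at 25.2 CPM, with 1.23 and 0.558 CPM in the other SKO libraries and 0.129 to 2.16 CPM in WT libraries. Erythroid markers, of which 0 of 3 tested were called, were at 28.9 to 119.7 CPM in SKO and 2.38 to 107 CPM in WT libraries, with Alas2 at 0. The part of these cells in the chaperone values was not tested.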

How the data were processed

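The authors deposited raw read counts for each gene in 6 libraries; these are whole numbers with a different total in each library. Per the submitters' processing notes, FastQC, Trim Galore 0.6.4 and HISAT2 2.0.5 were used with builds GRCm38 and mm10. Counting tool, strand setting and annotation: not given in the sources used here, so overlapping genes cannot be separated. The table's columns say CKO where the labels say SKO and were matched by genotype and replicate number. GENCODE vM21 named 49325 of the 49584 identifiers. PCR copies cannot be told from molecules, as there are no molecular identifiers.

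Genes kept by filterByExpr were tested two-sided with edgeR 4.0.16 in R 4.3.3 (TMM scaling, quasi-likelihood fit, genotype only) and p-values were adjusted by Benjamini-Hochberg over all 13474 tested genes. That fit also gave the standard errors and 95% intervals. CPM are TMM-scaled and TPM use joined exon lengths. Alternatives were other scalings and filters, robust fitting, DESeq2 1.42.0, limma 3.58.1 (voom), a replicate block, a loess correction (span 0.3) for transcript GC content and length, an adjusted p of 0.01 and each library left out. Near-identical copies were sought with BLAST 2.17.0 (at least 90% identity over 200 bases). The 10 genes, the lists and the tests were chosen with earlier results of these data known. Besides the 10 genes, the text names up to 3 called genes of each list by smallest p, a few regulators and classical targets, and the 5 nearest profiles of Hspa5 and Hsp90b1. The procedure was tested on simulated counts, drawn with the same biological spread for every gene and with independent libraries. That test therefore does not cover spread that differs between genes or libraries that share an origin. Counts of libraries of 1 genotype differed beyond sampling noise (chi-square over its degrees of freedom, 12.0 to 22.2), so none was treated as a library deposited again; this does not show that they came from separate animals.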

Additional observations from a re-analysis of the deposited data

How the results depend on the processing

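Hspa5, Hsp90b1, Dnajb11, Dnajc3, Sdf2l1, Creld2 and Sil1 kept their direction and their call in all 15 alternatives at the 0.05 threshold, with Hspa5 between −1.71 and −1.38 and Hsp90b1 between 0.59 and 0.97. Hyou1 passed in 1 alternative, library totals, and Dnajb9 lost its call in turn without SKO replicates 1 and 2 and WT replicates 1 and 3. Manf, not called in any of them, had log2 fold changes from −0.17 (library totals) to 0.25, and ran between −0.0014 (without WT replicate 2) and 0.20 when single libraries were left out; the cause was not tested. The number of the 10 genes called lower was 6 to 8 and the number called higher was 1 throughout. Over all tested genes, library totals gave 1010 higher and 3168 lower, and an adjusted p of 0.01 gave 1230 higher and 1142 lower, in place of 1901 and 1937. The log2 difference of the Hsp90b1 to Hspa5 ratio was 2.30 and stayed positive with each library left out, between 2.21 and 2.46. The ratio was not recalculated with the GC and length trend removed. In that setting the fitted changes were closer together, at −1.40 for Hspa5 and 0.67 for Hsp90b1, against −1.44 and 0.85 in the main fit.

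No pairing of the libraries by replicate number was seen: deviations of same-numbered libraries from their group means correlated at 0.03, −0.05 and 0.05. Those of differently numbered libraries correlated at −0.12 to 0.10. With 3 libraries in each group such values cannot exclude a pairing. With a replicate block 1976 genes were higher and 1991 lower, the 10 genes kept 7 lower and 1 higher, and the ratio difference of 2.30 had an exact sign-flip p of 0.25, the smallest that 3 pairs allow. At this depth 3 counts equal 0.236 to 0.253 CPM in SKO and 0.195 to 0.21 CPM in WT libraries, well below every value of the 10 genes.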

Other observations

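Hsp70 and Hsp90 genes of other compartments are relatives of Hspa5 and Hsp90b1. Of 12 tested, 4 were lower, 1 was higher and 7 did not pass (median log2 fold change −0.14). For this and the next 2 lists, the shares over all tested genes were 14.4% lower and 14.1% higher. Trap1, the Hsp90 of mitochondria, was at 32.3 ± 5.25 CPM in SKO and 78.4 ± 5.96 CPM in WT cells (SD, n = 3 each; edgeR adjusted p = 5.86e-05), Hsp90ab1, a cytosolic Hsp90, at 239 ± 28.4 CPM in SKO and 415 ± 36.1 CPM in WT cells (0.000146), and Hspa8, the constitutive cytosolic Hsp70, at 544 ± 39.3 CPM in SKO and 776 ± 78.1 CPM in WT cells (0.00198). Hsp90aa1 was at 5794 ± 279 CPM in SKO and 6064 ± 482 CPM in WT cells (log2 fold change −0.07; 0.61); it was named after its values were seen. Of 13 tested genes of ER calcium handling, 3 were higher and 3 lower: Sdf4, a luminal calcium-binding protein whose main site is the Golgi, fell with −1.54 (3.63e-06), and Selenok and Tmco1, both ER membrane proteins, rose with 0.82 (4.91e-05) and 0.50 (0.01). Of 9 tested SRP and SRP receptor genes, 3 were higher (Srp14, Srp9 and Srp19, with 0.77, 0.63 and 0.64) and 1, Srp68, was lower with −1.52 (0.00107).

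Outside the 10 genes, 16 genes with an ERSE in the RefSeq promoter window were tested, of which 4 were lower, 4 higher and 8 did not pass (median 0.06). Among all tested genes 14.4% were lower and 14.1% higher. The ERSE genes were picked out after the data were seen. The 4 lower ones were Calr, Pdia6, Derl3 and Tdrd9, and the 4 higher ones Canx, Hnrnpa3, Xlr3a and Xlr3b. The Xlr3 genes are near-identical copies, so their counts are uncertain. Of 7 such genes with an ERSE-II, 3 were higher (Herpud1, Krtcap2 and Rbm39) and 2 lower (Nucb1 and Rcl1).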
